A study of Mus musculus with 8 samples.

Results

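Chemokine receptors are G protein-coupled receptors through which a cell senses a gradient of chemokines and moves along it. Of these, 9 are described here in mouse dendritic cells, Ccr1, Ccr2, Ccr6, Cx3cr1, Cxcr2, Cxcr3, Cxcr4, Cxcr5 and the atypical receptor Ccrl2, chosen as a gene family with Ccr7 set aside. All 9 were found by symbol among the 55487 Ensembl gene identifiers of the count table. Inflammatory receptors such as CCR1, CCR2 and CXCR2 bring cells from the blood into inflamed tissue. CXCR4 and CXCR5 guide cells within bone marrow and lymphoid organs, and CCR7 takes mature dendritic cells to the lymph node. CCRL2 binds the chemoattractant chemerin without signalling through G proteins.

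The libraries came from bone marrow derived dendritic cells (BMDC) of wild-type C57BL/6J mice, 6 to 8 weeks old, grown in GM-CSF at 20 ng/ml for 10 days. In 4 libraries the BMDC were untreated. In the other 4 the BMDC had been co-cultured for 4 h with human Jurkat cells, an established T-cell leukemia line killed by ferroptosis with 0.5 µM ML162, and the BMDC that had engulfed Jurkat material were sorted (BMDC-fer). All cells of both groups were wild type and grown in GM-CSF. Sorting is described for BMDC-fer, so that co-culture, uptake and sorting cannot be told apart.

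Total counts per library lay between 39326672 and 50532209, where 3 counts equal 0.0594 to 0.0763 CPM (counts scaled to a library total of 1e6). This floor covers counting error alone, while the intervals of fold changes come from the fit and include the spread between libraries. Replicates 1 and 2 of each group separated from 3 and 4, a split that no label names. Among the 10 markers fixed for dendritic cells, Itgax (CD11c) was abundant in both groups, at 1111 ± 294 CPM in untreated cells against 1033 ± 247 CPM after uptake (SD, n = 4 each). The summed level of the list was 7773 to 17853 CPM in untreated cells against 3569.8 to 8754 CPM after uptake. Of these 10 markers, 2 fell in the test described next, Flt3 (-4.06 on the log2 scale) and Irf4 (-1.42), and Itgax was highest at -0.10. When the replicate number was added as a block, 7 fell, where 8.13% of all tested genes did.

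Groups were compared with edgeR's quasi-likelihood test and Benjamini-Hochberg adjustment. A call needed both an adjusted p up to 0.05 and a log2 fold change of at least 0.58 in either direction. Of the 15411 genes left by the low-count filter, 9.38% were called, 3.47% higher and 5.91% lower in BMDC-fer. Of the 9 receptors, 6 passed this filter and 0 of the 6 were called, where 4612 of all genes had an unadjusted p under 0.05, Ccr1 among them. DESeq2 also called 0 of these 6. Ccr6, Cxcr3 and Cxcr5 had too few counts and were taken from a fit on all 28787 genes with any count, in which 4.51% were called and Ccr6 alone of the 3 was. In bulk samples, fewer cells that express a receptor and less of its RNA per cell cannot be told apart.

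The receptors fell into a well expressed and a scarce set. Scaled to exon length and library total (RPKM), which lets genes be set side by side, Ccr1 stood at the top with a level of 133 ± 12.5 RPKM (SD, n = 4) in BMDC and 184 ± 32.2 RPKM (SD, n = 4) in BMDC-fer. It held between 70.3% and 76.3% of the summed RPKM of the 9 receptors in the BMDC libraries and between 77.4% and 81.1% in the BMDC-fer libraries, and those ranges did not overlap. Ccr2, Cxcr4 and Ccrl2 followed in BMDC with mean levels of 21.1, 15.5 and 11.4 RPKM and overlapping ranges, so their order was not larger than the spread between libraries. In BMDC-fer they were at 20.5, 17.7 and 6.78 RPKM, and the Ccrl2 range lay below that of Ccr2. The remaining receptors were under 1 RPKM in every library. Their means in BMDC were 0.333 RPKM for Cxcr2, 0.146 for Ccr6, 0.123 for Cxcr5, 0.121 for Cx3cr1 and 0.0709 for Cxcr3, again with ranges that overlapped.

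**Figure D1:**
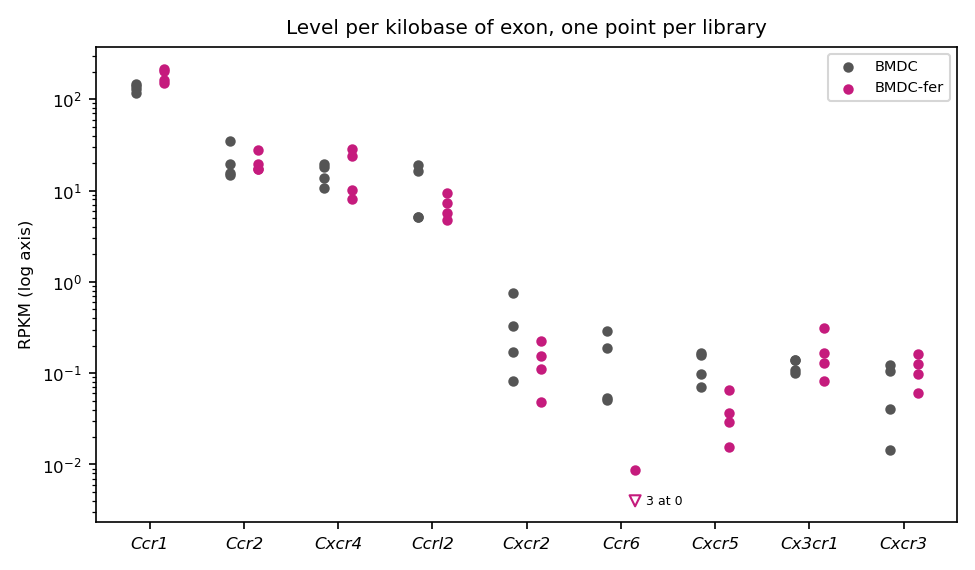
Level of each receptor per kilobase of exon (RPKM, log axis), with 1 point per library, 4 in BMDC (grey) and 4 in BMDC-fer (magenta). The open triangle stands for the 3 BMDC-fer libraries in which Ccr6 had 0 counts. Ccr1 is above every other receptor, and a gap separates Ccr2, Cxcr4 and Ccrl2 from the 5 scarce receptors.

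Ccr1 encodes a receptor for CCL3, CCL5, CCL7 and CCL9 that is found on monocytes, macrophages, neutrophils and immature dendritic cells. It spans 123962124 to 123968692 of chromosome 9 in GRCm38 (GENCODE M21). Its level was 333, 365, 413 and 397 CPM in untreated replicates 1 to 4, against 423, 463, 614 and 580 CPM in BMDC-fer. Every BMDC-fer library was above every BMDC library (exact permutation, two-sided p = 0.0286, which is the lowest value possible with 4 libraries a group). The permutation exchanged all libraries freely and did not keep the replicate pairs, so this p does not allow for their split. Among tested genes, 22.9% had groups that did not overlap, 11.3% with BMDC-fer above. The log2 fold change was 0.46 (standard error 0.15, 95% interval 0.13 to 0.80), short of the fold change required for a call and with an adjusted p of 0.0751 in edgeR. The replicate block gave an adjusted p of 0.0357 at a log2 fold change of 0.45, which is again too small a change for a call. The difference was 0.34 for the first replicate pair (1 and 2) against 0.56 for the second (3 and 4), and no difference between these was shown (edgeR interaction, adjusted p = 0.193).

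Ccr2, the receptor for CCL2 and CCL7 that lets monocytes leave the bone marrow, lies on the same chromosome from 124101950 to 124113557. Its level was 131, 236, 104 and 100 CPM in untreated replicates 1 to 4, against 132, 188, 117 and 117 CPM in BMDC-fer. The groups overlapped, and replicate 2 was the highest library of each. The log2 fold change was -0.05, with a 95% interval from -0.70 to 0.61 (edgeR adjusted p = 0.928), an interval that still holds changes past the call threshold in either direction. Its sign turned to 0.31 without BMDC replicate 2, and to 0.02 or 0.03 with the replicate block, without BMDC-fer replicate 3 and without BMDC-fer replicate 4. Of the 50-base words of its longest transcript, 2.27% also occur in other genes.

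Cx3cr1 encodes the receptor for fractalkine, a chemokine that Cx3cl1 encodes, and marks patrolling monocytes and many tissue macrophages. The gene spans 119901616 to 120069879 of chromosome 9, and 78 of its exon bases overlap Gm33858 on the other strand. Counts were low, at 21, 30, 19 and 25 in untreated replicates 1 to 4, against 29, 15, 31 and 54 in BMDC-fer. BMDC-fer held both the lowest and the highest library by CPM. The log2 fold change of 0.50 had a 95% interval from -0.43 to 1.42 (edgeR adjusted p = 0.441), at -0.21 for the first replicate pair against 1.00 for the second. Its ligand was called. Cx3cl1 was at 17.9 ± 4.84 CPM (SD, n = 4) in untreated cells against 5.98 ± 2.43 CPM (SD, n = 4) after uptake and fell by 1.58 on the log2 scale (edgeR adjusted p = 0.0154, Benjamini-Hochberg).

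The 9 macrophage markers fixed for comparison, C1q genes among them, had a median log2 fold change of 0.49, where the median over all tested genes was 0.000687. Of the 9 markers, 0 rose and 1 fell, where 3.47% of all tested genes rose and 5.91% fell. Adgre1 (F4/80) was the marker that fell, at -0.81, and Apoe was highest at 0.76. Their summed level was 1612 to 2427 CPM in untreated cells against 1779 to 3314 CPM after uptake. The 8 monocyte markers had a median of -0.08, with 0 called and values from Ms4a3 at -2.84 to Vcan at 0.41. Ms4a3 fell with the replicate block. They summed to 1374 to 2334 CPM in untreated cells against 1677 to 2633 CPM after uptake. The part of these cells in the Ccr1, Ccr2 and Cx3cr1 levels was not tested.

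Cxcr2 encodes the main neutrophil receptor for CXCL1, CXCL2, CXCL3, CXCL5 and the product of Ppbp, and lies on chromosome 1 from 74153989 to 74161246. Its counts were 99, 48, 22 and 10 in untreated replicates 1 to 4, against 34, 6, 14 and 18 in BMDC-fer. The groups overlapped, and the first BMDC library was far above the other 7. The log2 fold change of -1.29 had a standard error of 0.69 and a 95% interval from -2.85 to 0.26 (edgeR adjusted p = 0.239). Within replicates 1 and 2 Cxcr2 fell by 1.92 on the log2 scale (edgeR adjusted p = 0.0362, Benjamini-Hochberg), and in replicates 3 and 4 it stood at 0.05. The difference between the pairs did not pass (adjusted p = 0.140), though it did in a fit without the filter on low counts (0.00358) and with the replicate block (0.0310). It also passed without BMDC-fer replicate 1 (3.50, adjusted p = 0.0212). The fall in replicates 1 and 2 lost its call without BMDC replicate 1 (-1.23, edgeR adjusted p = 0.218) or BMDC-fer replicate 2 (-1.25, 0.124). Without BMDC-fer replicate 3 or 4 it stayed at -1.92 with adjusted p of 0.0557 and 0.0536. Over all left-out libraries it lay between -3.44 and -1.23, and the pooled value was -0.53 without BMDC replicate 1.

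The 10 neutrophil markers had a median log2 fold change of -2.95. S100a9, Ly6g, Ngp and Retnlg fell, which is 4 of the 10 where 5.91% of all tested genes fell. With the replicate block 7 did, where 8.13% of all tested genes fell. Retnlg was lowest at -4.14 (edgeR adjusted p = 0.0143, Benjamini-Hochberg). Mmp8, a collagenase of neutrophil granules that was also the most abundant gene of the list, stood highest at 0.50 and was not called. Their summed level, most of it Mmp8, was 638 to 1288 CPM in untreated cells against 785 to 1475 CPM after uptake, and 0 of the 10 were at 0 in all libraries. Their part in the Cxcr2 values was not tested. Of the 50-base words of the Cxcr2 transcript, 4.07% occur in other genes too.

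**Figure D2:**
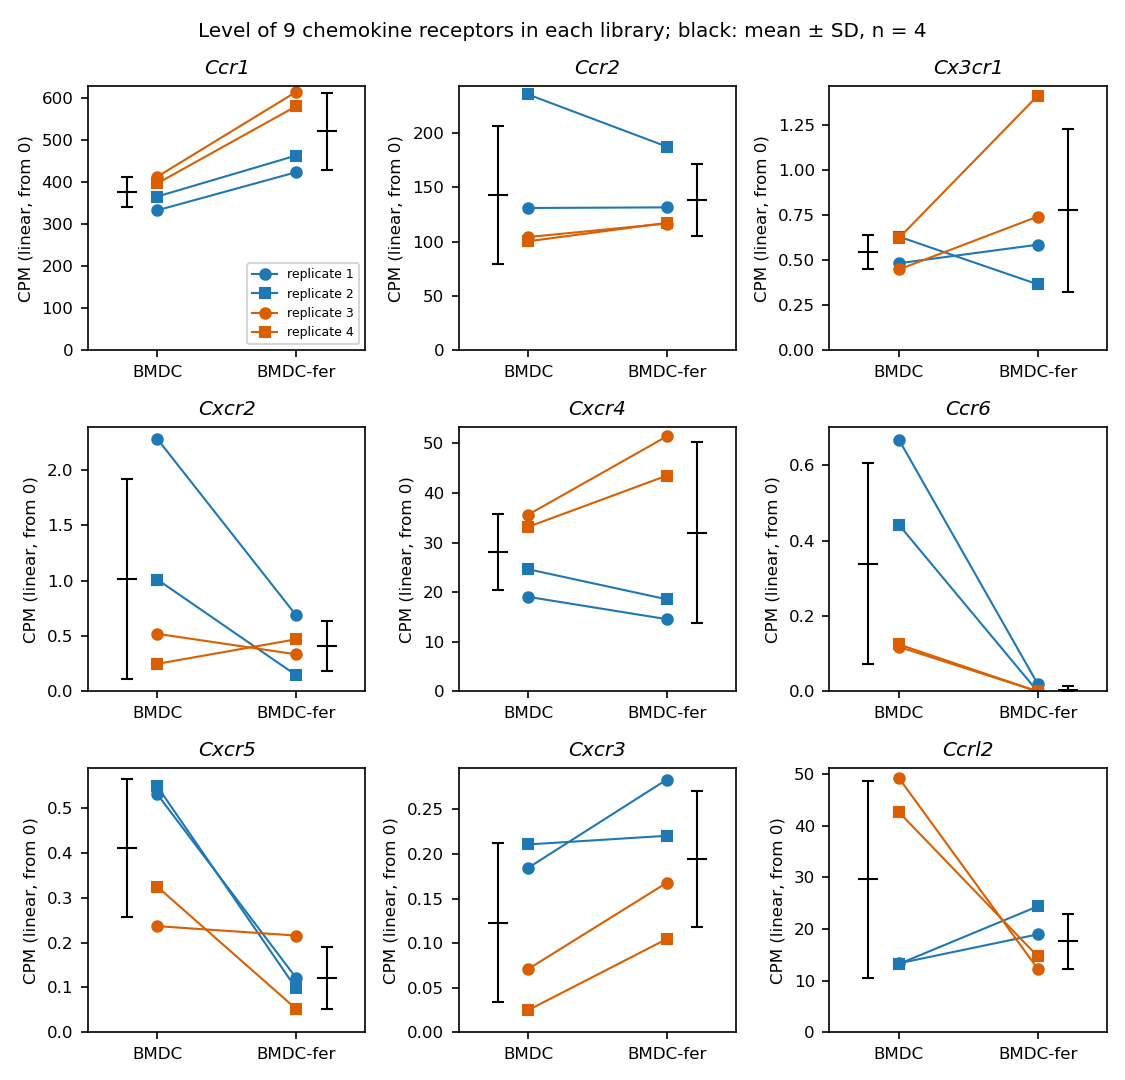
Level of each receptor in CPM (linear axis from 0) in BMDC and BMDC-fer, with lines joining libraries of the same replicate number, blue for replicates 1 and 2 and orange for replicates 3 and 4. Black bars give the mean ± SD of 4 libraries and stop at 0. The lines of Cxcr4 and Ccrl2 run in opposite directions in the 2 colours, and those of Ccr6 and Cxcr5 all fall.

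Cxcr4 and Ccrl2 were the receptors whose change differed between the replicate pairs, 2 of the 6 tested, where 37.8% of all tested genes differed (interaction term, adjusted p up to 0.05), or 22.2% without the filter. The promoter sequences of both are shown because their values turned in opposite directions in the same replicate pairs. Each is the 250 bases before the RefSeq start on the minus strand (GRCm38.p6), at chr9:111057519-111057768 for Ccrl2 and chr1:128592300-128592549 for Cxcr4. Capitals mark the motifs found on either strand, which are a κB motif, a GC box (GGGCGG) and a HIF core (ACGTG) for Ccrl2, and 3 GC boxes and a TATA box (TATAAA) for Cxcr4.
Ccrl2: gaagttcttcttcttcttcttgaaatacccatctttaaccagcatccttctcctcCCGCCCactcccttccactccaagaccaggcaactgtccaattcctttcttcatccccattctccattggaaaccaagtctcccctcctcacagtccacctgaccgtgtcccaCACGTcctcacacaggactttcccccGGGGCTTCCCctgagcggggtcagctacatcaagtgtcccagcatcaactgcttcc
Cxcr4: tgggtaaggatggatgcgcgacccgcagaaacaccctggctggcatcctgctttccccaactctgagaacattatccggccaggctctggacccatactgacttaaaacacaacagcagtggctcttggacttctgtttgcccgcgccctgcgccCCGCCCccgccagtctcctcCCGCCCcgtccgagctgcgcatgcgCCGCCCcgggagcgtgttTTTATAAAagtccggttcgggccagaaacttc

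The κB motif of Ccrl2 began 56 bases before the start and matched on both strands at the same place. Over the 32851 RefSeq windows of the same length, 7.25% held a κB motif, 32.7% a GC box, 12.4% a TATA box and 16.6% a HIF core. Among the 8 receptors with such a window, Cxcr5 being the one without, Ccr1 was the other one with a κB motif. AP-1 (TGANTCA, 6.75% of windows) and ISRE (2.98%) motifs matched 0 of the 8. These matches describe letters and say nothing of binding.

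Ccrl2 lies on chromosome 9 from 111054486 to 111057519. Its level was 13.4, 13.2, 49.2 and 42.6 CPM in untreated replicates 1 to 4, against 18.96, 24.4, 12.3 and 14.7 CPM in BMDC-fer. The BMDC libraries of replicates 3 and 4 were the highest of all, and the other 6 lay in a narrow range. Pooled, the log2 fold change of -0.75 did not pass (standard error 0.46, edgeR adjusted p = 0.306). Within replicates 1 and 2 Ccrl2 rose by 0.70 (standard error 0.14, edgeR adjusted p = 0.00490), and within replicates 3 and 4 it fell by 1.76 (standard error 0.15, adjusted p = 2.6e-05, Benjamini-Hochberg). In those pairs 22.3% and 33.0% of all tested genes were called, and 1.62% were called in both with opposite directions, as Ccrl2 was. The difference of the pairs was -2.47 on the log2 scale (edgeR interaction, adjusted p = 0.000100). It passed under every alternative and with any library left out, with an adjusted p of at most 0.00118. Without BMDC-fer replicate 2 the rise in replicates 1 and 2 was 0.50 and no longer a call.

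The untreated libraries themselves differed in Ccrl2 between the replicate pairs. In BMDC it was higher by 1.79 (log2) in replicates 3 and 4 than in replicates 1 and 2 (edgeR adjusted p = 2.1e-05), and in BMDC-fer it was lower by 0.68 in the same direction of comparison (adjusted p = 0.00934). The profile of Ccrl2 over the 8 libraries was closest to those of Dusp10, a phosphatase of stress kinases, Mafk, a small Maf transcription factor, and Gm34084. Their root mean square differences from it were 0.184, 0.186 and 0.209 in log2 units after centring, while Ccrl2 itself varied by 0.734.

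Ccrl2 can hold chemerin for the signalling receptor that Cmklr1 encodes. Cmklr1 was at 57.7 ± 22.1 CPM (SD, n = 4) in untreated cells against 109 ± 8.31 CPM (SD, n = 4) after uptake, and rose by 0.92 on the log2 scale (edgeR adjusted p = 0.0427, or 0.0187 once blocked on replicate). It was higher in both pairs, by 0.62 and 1.36, unlike Ccrl2. The chemerin gene Rarres2 had 3 counts or fewer in every library.

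Cxcr4, the receptor for CXCL12 that keeps blood cells in the bone marrow, lies on chromosome 1 from 128588199 to 128592293. Its level was 19.1, 24.6, 35.6 and 33.1 CPM in untreated replicates 1 to 4, against 14.5, 18.6, 51.4 and 43.5 CPM in BMDC-fer. The BMDC-fer libraries held the 2 lowest and the 2 highest values, so the BMDC values lay between them. The pooled log2 fold change was 0.19 (95% interval -0.74 to 1.11, edgeR adjusted p = 0.787). It was -0.40 in replicates 1 and 2 (adjusted p = 0.0711) and 0.46 in replicates 3 and 4 (adjusted p = 0.0314), and neither reached the fold change for a call. The difference between the pairs was 0.87 (edgeR interaction, adjusted p = 0.0138). It no longer passed without BMDC replicate 4 (adjusted p = 0.0597) or without BMDC-fer replicate 3 (0.0576).

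Replicates 3 and 4 had more Cxcr4 than replicates 1 and 2 in both groups, by 0.65 on the log2 scale in BMDC (edgeR adjusted p = 0.00654) and by 1.52 in BMDC-fer (adjusted p = 0.000410). Its closest profiles were Maged1, Ttc30b and Traf3ip2, at root mean square differences of 0.155, 0.173 and 0.175. The Jurkat cells taken up are of the T lineage. Of the 14 T-cell markers, Rag1 and Bcl11b were at 0 counts in all 8 libraries, and Cd3e reached at most 6 counts. The list summed to 46.0 to 65.3 CPM in untreated cells against 54.8 to 75.6 CPM after uptake, most of it Cd28 and Tal1. Within it Lck fell by 1.59 and was called (edgeR adjusted p = 0.0482, Benjamini-Hochberg), while Cd3g was lowest at -3.57 and Tal1 highest at 0.42, neither called, and Cd28 stood at 0.28. Cd3g fell with the replicate block. Among the untested members, Cd2 was at 0.146 CPM in untreated cells against 0.287 CPM after uptake, and Cd247 at 0.156 against 0.245 CPM. The part of Jurkat RNA in the Cxcr4 counts was not tested.

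Untreated BMDC also differed between the replicate pairs in Ccr2 and Cxcr2. Replicates 3 and 4 were lower than replicates 1 and 2 by 0.84 (log2) for Ccr2 (edgeR adjusted p = 0.0165) and by 2.07 for Cxcr2 (adjusted p = 0.0218). With Cxcr4 and Ccrl2 that made 4 of the 6 tested receptors called in BMDC, where 36.0% of all tested genes were. In BMDC-fer 2 of the 6 were called, Cxcr4 and Ccrl2, against 15.4% of all tested genes.

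Ccr6 and Cxcr5 were the receptors that were lower in BMDC-fer in all 4 same-numbered pairs. In both, the groups did not overlap (two-sided exact permutation test that did not keep the replicate pairs, p = 0.0286 for each). Among tested genes, 11.6% had BMDC-fer below without overlap. Neither receptor passed the low-count filter, and that share was not computed for genes outside it. How many genes were lower in all same-numbered pairs was not counted. Ccr6, the receptor for CCL20, lies on chromosome 17 from 8236043 to 8257141. It had 29, 21, 5 and 5 counts in BMDC replicates 1 to 4, and 1 count in all of BMDC-fer, in replicate 1. BMDC replicates 1 and 2 held most of these counts. With BMDC-fer raised to a floor of 3 counts per library, the BMDC mean of Ccr6 was 4.76-fold higher over all libraries. This ratio was 8.28-fold in the first replicate pair and 1.62-fold in the second. It allows for counting error in BMDC-fer alone, not for that of BMDC or the spread between libraries, so it is not a lower limit. In the fit on all genes its adjusted p was 0.0136 (edgeR), 2.2e-06 within replicates 1 and 2 and 0.00790 within replicates 3 and 4. The pooled adjusted p rose to 0.0526 without BMDC-fer replicate 4, and the call in replicates 3 and 4 was lost without either of their BMDC-fer libraries (0.0668 and 0.0574). In this fit 2.86% of genes were called lower, and 14.0% and 20.2% were called within the replicate pairs. With the block 8.33% were called, Ccr6 again among them. In BMDC, Ccr6 was lower by 2.19 (log2) in replicates 3 and 4 than in replicates 1 and 2 (adjusted p = 0.00836, where 21.9% of genes in that fit were called). Ccl20, the gene of its ligand, had 0 counts in BMDC and up to 5 in BMDC-fer.

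Cxcr5, the receptor for CXCL13 by which B cells and some dendritic cells reach follicles, lies on chromosome 9 from 44511787 to 44561877. Its counts were 23, 26, 10 and 13 in untreated replicates 1 to 4, against 6, 4, 9 and 2 in BMDC-fer. The log2 fold change of -1.71 had a 95% interval from -2.84 to -0.57 but was not called (adjusted p = 0.0878, edgeR without the filter). Over the alternatives that value lay between 0.0214 and 0.215, the lowest from DESeq2, which called it. It fell by 2.25 in replicates 1 and 2 (edgeR adjusted p = 0.00212), was -0.99 in replicates 3 and 4 (adjusted p = 0.317), and the difference was not shown (interaction, adjusted p = 0.450). DESeq2 did not call the fall in replicates 1 and 2 (adjusted p = 0.0566). Cxcl13 had 0 counts in all libraries.

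Exons of Cxcr5 share 110 bases with exons of Bcl9l on the opposite strand, and the use of strand in counting is not given in the sources used here. Bcl9l itself was 21.8 to 22.4 CPM in untreated cells against 8.71 to 14.3 CPM after uptake, and fell by 0.87 (edgeR adjusted p = 0.0144, Benjamini-Hochberg). Its part in the Cxcr5 counts was not tested. Among the 8 B-cell markers, 3 could be tested and 0 were called. With the replicate block Cd22 rose, at a log2 fold change of 0.83 without the block, while Fcrla was lowest at -0.49. Pax5 had at most 6 counts. Cd22 made up most of the list's sum, which was 6.18 to 17.8 CPM in untreated cells against 13.3 to 26.2 CPM after uptake.

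Cxcr3, the receptor for CXCL9 and CXCL10 on activated T cells, NK cells and plasmacytoid dendritic cells, was the scarcest in BMDC. It lies on chromosome X from 101731535 to 101734269. Counts were 8, 10, 3 and 1 in untreated replicates 1 to 4, against 14, 9, 7 and 4 in BMDC-fer. It was higher in BMDC-fer in all 4 same-numbered pairs, but the libraries overlapped (exact permutation, two-sided p = 0.257) and a difference was not detectable at this depth (log2 fold change 0.66, 95% interval -0.72 to 2.04, edgeR adjusted p = 0.530). Of 6 NK-cell markers, 5 had 3 counts or fewer in every library. Their sum was 0.0499 to 0.358 CPM in untreated cells against 0.122 to 0.236 CPM after uptake. Of 7 plasmacytoid dendritic cell markers, 4 were tested, and Spib fell (-2.47, edgeR adjusted p = 0.0168, Benjamini-Hochberg), with Tcf4 highest at -0.48. Siglech, which defines these cells, had at most 4 counts. The list summed to 41.6 to 88.8 CPM in untreated cells against 31.8 to 49.5 CPM after uptake, most of it Runx2 and Tcf4, and its part in Cxcr3 was not tested.

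**Figure D3:**
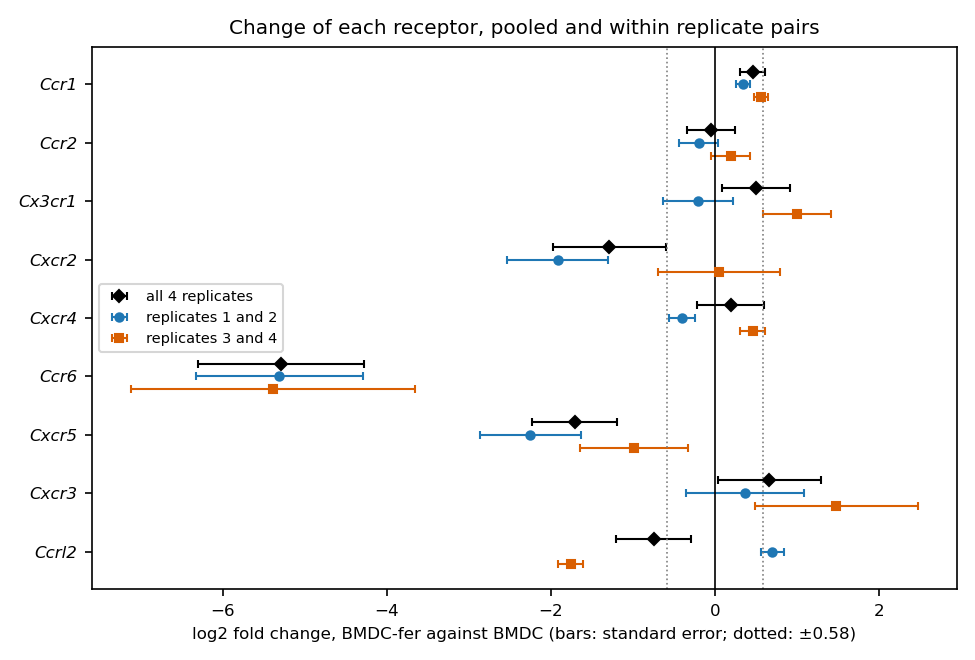
Log2 fold change of BMDC-fer against BMDC for each receptor, from all 4 replicates (black), replicates 1 and 2 (blue) and replicates 3 and 4 (orange), with bars for the standard error and dotted lines at ±0.58. Ccrl2 is at 0.70 and -1.76 and Cxcr4 at -0.40 and 0.46 in the replicate pairs. The fitted values of Ccr6 rest on 1 count in BMDC-fer and are not a measure of its fold.

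The rest of the pathway was read from lists chosen for their role. Of 14 other receptors listed, which are chemokine and atypical receptors and the chemerin receptor of Cmklr1, 6 were tested. Among these, 1 rose (Cmklr1) and 1 fell (Ccr7), where 3.47% of all tested genes rose and 5.91% fell. Ccr7 was 133 ± 33.3 CPM (SD, n = 4) in untreated cells against 15.6 ± 7.59 CPM (SD, n = 4) after uptake, and it fell by 3.09 on the log2 scale, more than any of the 6 receptors tested. Ccr4, Ccr9, Ccr10 and Xcr1 were not called, with values between -0.71 and 0.40. The 10 markers of mature dendritic cells, Ccr7 among them, had a median of -1.06. Of the 9 tested, 5 fell (Ccr7, Fscn1, Ccl22, Tmem123 and Cacnb3), where 5.91% of all tested genes did. Fscn1 was lowest at -3.54 and Socs2 highest at -0.32. Under the block 7 fell, Ccl17 and Cd40 being added, where 8.13% of all tested genes fell. The median was -0.98 for the first replicate pair against -2.18 for the second. Between the pairs 5 of the 9 tested differed, where 37.8% of all tested genes did. The 10 markers summed to 2033 to 2641 CPM in untreated cells against 540.4 to 1621 CPM after uptake. The 8 basophil and mast cell markers summed to 36.7 to 68.5 CPM in untreated cells against 14.998 to 35.1 CPM after uptake, with 4 tested, 0 called, and values from Cpa3 at -1.92 to Kit at -0.71. Cpa3 fell with the replicate block. Their part in the receptor levels was not tested.

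Several inflammatory ligands of the 9 receptors were higher in BMDC-fer. Of 20 ligands listed, 16 were tested, with a median log2 fold change of 1.00. Among these, 6 rose and 2 fell, where 3.47% of all tested genes rose and 5.91% fell. With the replicate block, 8 rose and 2 fell, where 4.85% of all tested genes rose. The median was 2.11 for the first replicate pair against 0.78 for the second. Between the pairs 11 of the 16 differed, where 37.8% of all tested genes did. The inflammatory ligands of Ccr1 and Ccr2 rose for Ccl2 (1.89), Ccl3 (1.70) and Ccl9 (0.83), and those of Cxcr2 for Ppbp (2.08) and Cxcl5 (2.06). Other Cxcr2 ligands were not called and changed sign between the first and the second replicate pair. Cxcl1 was at 3.31 against -0.75, Cxcl2 at 3.00 against -1.41 and Cxcl3 at 2.24 against -0.27 (edgeR interaction, adjusted p = 0.000212, 3.3e-05 and 0.000989). Pf4, a platelet chemokine for which a human CXCR3 splice form has been described, rose by 1.35 (edgeR adjusted p = 0.00751, Benjamini-Hochberg). The listed ligands that fell were Ccl5, another ligand of Ccr1, at -3.86, the lowest of the list, and Cx3cl1. The highest value, 2.31 for Ccl7, was not called (edgeR adjusted p = 0.0831). With the replicate block Ccl7, Ccl12 and Cxcl10 were called higher (edgeR adjusted p = 0.0460, 0.0332 and 0.0397). Ccl6, the most abundant ligand of the list, stood at 0.32 and was not called (edgeR adjusted p = 0.480).

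Inside the cell, chemokine receptors act through Gi proteins, are switched off by receptor kinases, arrestins and RGS proteins, and drive movement through PI3Kγ, phospholipase C and Rac exchange factors. Over all tested genes 3.47% rose and 5.91% fell, or 4.85% and 8.13% with the replicate block. Of 12 G protein subunits, 0 rose and 2 fell, Gnb4 at -1.49 and Gng10 at -1.36, and the highest was Gna15 at 0.55. The Gi subunit genes Gnai2 and Gnai3 stood at -0.07 and -0.03. Among 15 kinases, arrestins and RGS genes, 0 rose and 2 fell, Rgs2 at -0.70 and Rgs12 at -1.02, or 5 with the replicate block, in which Grk3, Rgs3 and Rgs18 joined them. The lowest was Rgs3 at -1.81 (not called without the block, edgeR adjusted p = 0.0817) and the highest Rgs16 at 0.74. Of 17 effectors, 1 rose, the phospholipase gene Plcb3 at 0.77, and 2 fell. These were Pik3cg, the catalytic subunit of PI3Kγ, at -1.19, and Prex1, a Rac exchange factor, at -0.72. With the replicate block Plcb3 was not called (edgeR adjusted p = 0.0758), nor was Ccl9 (0.0865).

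**Figure D4:**
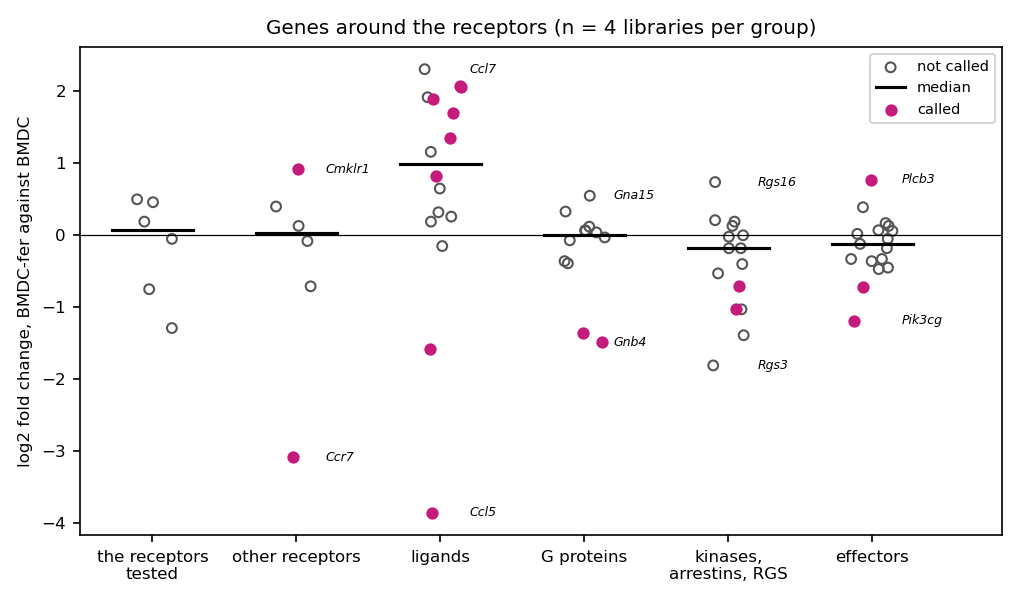
Log2 fold change of BMDC-fer against BMDC for the 6 receptors that passed the filter and for the tested genes of 5 lists around them, with 1 point per gene, called genes filled and the median of each list as a bar. The ligands have the highest median, 1.00, and the other medians lie between -0.18 and 0.07.

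Ccr1 and Ccr2 varied less than Ccrl2 and Cxcr4 over the 8 libraries. The root mean square of their centred log2 levels was 0.288 for Ccr1 and 0.399 for Ccr2, against 0.604 for Cxcr4. The genes with the profile nearest to Ccr1 were Lrrc57, Tmem115 and Mocos, at 0.0438, 0.0511 and 0.0658, and those nearest to Ccr2 were Ahcy, Hist1h2bk and Pspn, at 0.137, 0.149 and 0.1501.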

How the data were processed

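Total RNA was extracted, and 4 BMDC and 4 BMDC-fer libraries were sequenced. The study counted reads on the mouse and on the human genome and took only the mouse data further. The authors mapped filtered reads with HISAT2 and counted them per gene with featureCounts, and the deposited raw counts were used unchanged. Per the labels the build is mm10. The annotation release, the strand setting and the handling of multimapped reads are not given in the sources used here. Symbols were found for 55141 identifiers (GENCODE M21, GRCm38).

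The statistics used edgeR 4.0.16 under R 4.3.3 (TMM, filterByExpr with a minimum count of 10, or 0.236 CPM, quasi-likelihood test, Benjamini-Hochberg). Receptors that failed the filter came from a fit on all genes with any count, as did single receptors that failed it once a library was left out. Standard errors are the log2 fold change divided by the square root of F. Permutation tests used log2(CPM + 0.05) and exchanged the libraries without regard to replicate number or pair. RPKM used merged exon lengths. Differences between replicate pairs came from an interaction term, and their contrasts within BMDC and within BMDC-fer were added later. DESeq2 1.42.0, other size factors, other filters, the replicate block and leaving out each library were alternatives.

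Deviations from the group means correlated with r of 0.446, 0.355, 0.313 and 0.343 between same-numbered libraries across genes, all over 0.1, and the numbers were taken to pair the samples. Libraries of the same replicate pair with another number had r of 0.186 and 0.287 (replicates 1 and 2) and 0.380 and 0.343 (replicates 3 and 4), so that within replicates 3 and 4 the correlations do not tell the numbers apart. The numbers come from the sample labels, which do not say what they share. No replicates differed by less than sampling noise (chi-square per gene at least 9.00). P-values of the pooled test measure the spread between these libraries, which the study calls independently collected. Those of contrasts within or between replicate pairs rest on the spread of libraries inside a pair. That spread was smaller, with a chi-square per gene of 9.00 to 40.9 inside pairs against 133 to 346 across them. Such p-values do not measure how a replicate pair would vary if repeated. In simulated counts the edgeR test recovered 96.9% of 195 genes changed by 1.5 on the log2 scale among 15232, and the interaction test 75% of 196 among 15219. Those counts were drawn without a baseline difference between the replicate pairs. In untreated cells 36.0% of all tested genes differed between the pairs, so the recovery of the pooled test in these data was not measured.

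The members, lists, motifs and tests were chosen with earlier results of these data known. Named genes are the 9 receptors, the highest, lowest and called genes of each list, and the 3 nearest profiles of receptors with a mean of at least 50 counts. Rarres2, Ccl20, Cxcl1, Cxcl2, Cxcl3, Cd2, Cd247, Cxcl13, Bcl9l and some uncalled list genes were named after their values were seen.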

Additional observations from a re-analysis of the deposited data

Results flagged for a closer look

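For 2 receptors the change after uptake was not the same in the replicate pairs 1-2 and 3-4 (edgeR interaction term). The log2 fold change of Ccrl2 was lower in replicates 3 and 4, a difference of -2.47, and that of Cxcr4 was higher by 0.87. No label tells the pairs apart, so that what separates them is not known.

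In 1 of 18 groups of 4 libraries, 1 library stood well away from its group, and about 0.9 such groups would be expected by chance. This was Ccr6 in BMDC-fer replicate 1, whose gap to the next library was 1 time the whole range, from 1 count against 0 in the other 3.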

How the results depend on the processing

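The number of tested genes called was 1445, 2000 with the replicate block and 2261 with DESeq2, and between 565 and 1440 with 1 library left out. It was lower by more than 1.5 times without BMDC replicate 3 (862) or 4 (879) and without BMDC-fer replicate 2 (797), 3 (867) or 4 (565). Of the 9 receptors, 1 was called, 2 with DESeq2 (Ccr6 and Cxcr5), 0 under the stricter filter, which leaves out Ccr6, and 0 to 1 with a library left out. The replicate block changed no receptor's pooled call. The effect differed between replicate pairs for 2 receptors, for 3 with the replicate block (Cxcr2 added), for 4 without the filter (Ccr2 and Cxcr2 added), and for 1 to 3 with a library left out.

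Some signs turned. Ccr2 was 0.02 with the block and 0.03 to 0.31 without BMDC replicate 2 or BMDC-fer replicates 3 or 4 (range -0.23 to 0.31 over left-out libraries), and in replicates 1 and 2 it was 0.29 and 0.04 without BMDC replicate 2 or BMDC-fer replicate 1 (range -0.57 to 0.29). Its difference between pairs, 0.39 with all libraries, was -0.09 without BMDC replicate 2 (range -0.09 to 0.77). Cxcr4 was -0.13 without BMDC-fer replicate 3 (range -0.13 to 0.43). In replicates 3 and 4, Cxcr2 was -0.37 and -0.20 without BMDC or BMDC-fer replicate 4 (range -0.37 to 0.69), and in replicates 1 and 2 Cx3cr1 was 0.06 without BMDC-fer replicate 2 (range -0.59 to 0.06). The difference between pairs was 0.92 for Ccr6 with DESeq2, 0.21 and 2.19 without BMDC replicate 2 or BMDC-fer replicate 1 (range -0.81 to 2.19), and -0.10 for Cxcr5, from 1.26, without BMDC-fer replicate 3 (range -0.10 to 1.90). The cause was not tested. Of 436 values over 36 receptor results, 397 kept their direction and their side of the threshold, 11 lost the threshold, 13 gained it and 15 turned. Depth limits Ccr6, Cxcr3 and Cxcr5, with means under 12 counts.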
